A study of Mus musculus with 13 samples.

Results

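The S100 calcium-binding proteins were followed through 9 genes, S100a1, S100a3, S100a4, S100a6, S100a10, S100a11, S100a13, S100a16 and S100b, out of 57010 genes listed per library. Symbols were matched to gene identifiers through the mouse GRCm39 annotation, and each gene's expected count was read in all 4 groups. The 9 genes were chosen by family name from the annotation and from their expected counts in the 4 groups, which were already known, so their fold changes and p-values describe them and test nothing about the family. All 9 passed the filter on low counts that 15034 genes passed.

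S100 proteins are small EF-hand proteins that pair into dimers and, on binding calcium, expose a surface that grips partner proteins such as annexins, myosin or p53. Some leave the cell without a signal peptide and act on receptors such as Ager (RAGE) and Tlr4, so they are counted among the alarmins released by stressed cells. In fibroblasts S100a4, also called fibroblast-specific protein, S100a6, S100a10 and S100a11 are the members usually found, whereas S100b is better known from glia and S100a1 from muscle.

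RNA of wild-type primary mouse embryonic fibroblasts (MEFs), cells grown from minced embryos after the viscera were removed, was sequenced in 4 groups, each with mice numbered 4, 5 and 6. The control group was neither made senescent nor given Fucoidan-FV. The senescent group was exposed to 2 μM etoposide, a topoisomerase II poison, for 24 h, then grown for 5 days without it. The groups called FV100 and FV300 were senescent MEFs given Fucoidan-FV, a sulphated polysaccharide of the brown alga Fucus vesiculosus, at 100 or 300 μg/mL for 12 h. Control mouse 5 had libraries 5(1) and 5(2), which were summed to 1 sample, so 13 libraries gave 12 samples of 3 mice per group. The Fucoidan-FV comparisons both take the senescent cultures as their reference and therefore share those 3 samples. The comparison of senescent with control MEFs uses the same 3 cultures. A high senescent value thus raises that difference and lowers both Fucoidan-FV differences.

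Libraries held between 22782505 and 31278741 counts. Cdkn1a, which encodes the cell-cycle inhibitor p21, stood at 468 ± 83.2 CPM (counts per 1000000 counts of the TMM-scaled library; mean ± SD, n = 3) in control and 1652 ± 187 in senescent MEFs, a log2 fold change of 1.82 ± 0.18 (SE) with an adjusted p of 6.8e-05. The 8 fibroblast markers, among them Col1a1, Pdgfra and Vim, summed to between 31844 and 53766 CPM per sample, and each of the 8 was detected. Fn1 was the largest part of the sum, with 18163 to 42455 CPM, while Pdgfra had 2.07 to 25.9 CPM. In bulk RNA of this kind, fewer cells that express a gene and less RNA of it per cell cannot be told apart.

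Of the 9 genes, 8 lie on mouse chromosome 3 and S100b lies on chromosome 10 (GRCm39). S100a13 (chr3:90416091-90431912, plus strand) has S100a1 (chr3:90418340-90421848, minus strand) inside its gene body. S100a16 (chr3:90444172-90450462), S100a3 (chr3:90491966-90510009), S100a4 (chr3:90511074-90513354) and S100a6 (chr3:90520140-90535843) follow on the plus strand, and S100a11 (chr3:93414382-93435293) and S100a10 (chr3:93462213-93474510) sit further along. S100b spans chr10:76085090-76097159 on the plus strand. Because S100a13 and S100a1 overlap on opposite strands, in 4.19% of the exonic bases of S100a13 and 3.67% of those of S100a1, a few of their reads cannot be told apart where counting ignores strand.

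RefSeq start windows, running from 250 bases before to 50 bases after a transcription start, were available for 8 of the 9 genes in 12 windows of 300 bases; S100a10 had none. Every window, listed with build GRCm38.p6, matched the GRCm39 chromosome exactly once, and positions are given in GRCm39. The 4 windows printed here belong to the 2 genes called after Fucoidan-FV, S100a6 and S100a3 (the third of its 4 starts), to S100a4, which lies between them, and to S100a11, which was called in no comparison. Capitals mark every match, on either strand, of TATAAA, of the E-box CACGTG, of the AP-1 motif TGANTCA, of CCAAT and of the GC box GGGCGG; no motif overlapped another in these windows.
S100a6: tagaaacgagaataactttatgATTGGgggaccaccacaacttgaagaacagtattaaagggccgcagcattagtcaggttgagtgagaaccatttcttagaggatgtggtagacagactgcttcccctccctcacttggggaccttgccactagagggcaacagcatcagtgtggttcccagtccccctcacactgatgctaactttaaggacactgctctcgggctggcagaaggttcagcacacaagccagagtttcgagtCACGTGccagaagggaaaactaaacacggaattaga
S100a3: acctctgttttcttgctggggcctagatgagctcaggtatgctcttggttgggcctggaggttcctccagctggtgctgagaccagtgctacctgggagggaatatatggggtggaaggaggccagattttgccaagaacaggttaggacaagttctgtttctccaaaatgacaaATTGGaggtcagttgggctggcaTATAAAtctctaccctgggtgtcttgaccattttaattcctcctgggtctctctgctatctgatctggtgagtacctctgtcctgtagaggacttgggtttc
S100a4: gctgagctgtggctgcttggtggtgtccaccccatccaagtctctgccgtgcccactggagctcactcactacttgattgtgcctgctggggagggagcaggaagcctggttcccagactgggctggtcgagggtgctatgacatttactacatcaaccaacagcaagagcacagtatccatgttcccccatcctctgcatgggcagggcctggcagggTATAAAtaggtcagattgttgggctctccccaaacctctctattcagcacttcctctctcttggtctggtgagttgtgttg
S100a11: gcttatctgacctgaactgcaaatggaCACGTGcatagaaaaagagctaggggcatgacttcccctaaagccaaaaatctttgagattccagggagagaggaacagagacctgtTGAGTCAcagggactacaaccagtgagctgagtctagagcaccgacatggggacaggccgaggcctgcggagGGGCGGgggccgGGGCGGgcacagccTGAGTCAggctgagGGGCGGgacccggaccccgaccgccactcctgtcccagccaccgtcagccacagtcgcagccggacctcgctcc

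The S100a6 window (chr3:90519951-90520250) held CACGTG from base 15 after the start and a reverse CCAAT at 228 bases before it, and no TATAAA. The TATA box TATAAA stood 31 bases before the start in S100a4 (chr3:90510827-90511126) and 52 bases before it in S100a3 (chr3:90495620-90495919), 2 of the 12 windows against 13.6% of 32851 RefSeq windows of the same length. The S100a11 window (chr3:93427553-93427852) held 3 GC boxes, 2 AP-1 motifs and 1 CACGTG. Over all 32851 windows CACGTG occurred in 7.15%, TGANTCA in 7.81%, CCAAT in 37.4% and GGGCGG in 35.7%. S100a1 and S100a13 start 105 bases apart on opposite strands, so that their windows share 204 bases, and neither window held any of the 5 motifs. These matches describe letters in a window and were not tied to binding of any factor.

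Levels per transcript length, as RSEM's TPM, spanned more than 3 orders of magnitude among the 9 genes. S100a6, calcyclin, was the most abundant with a median of 2969 TPM over the 12 samples and made up between 51.3% and 80.9% of the summed TPM of the 9 genes. It was followed by S100a11 (779 TPM), a partner of annexin A1, S100a4 (462 TPM), which binds non-muscle myosin, and S100a10 (441 TPM), the p11 subunit of a complex with annexin A2. S100a16 had a median of 90.7 TPM, S100a1 38.8, S100a13 12.4, S100a3 2.83 and S100b 0.590. The order of neighbours held in 12 of 12 samples from S100a6 to S100a11, from S100a10 to S100a16, from S100a16 to S100a1 and from S100a1 to S100a13. S100a11 exceeded S100a4 in 9 of 12 samples and S100a4 exceeded S100a10 in 7 of 12, so these 3 levels did not separate beyond the spread of the samples.

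**Figure D1:**
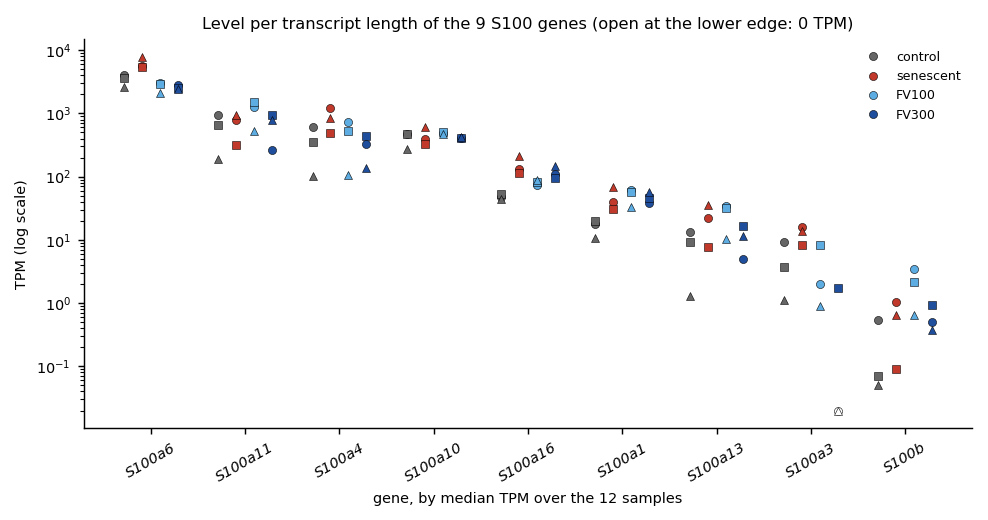
TPM (log axis) of the 9 S100 genes in each of the 12 samples, coloured by group, with circles, squares and triangles for mice 4, 5 and 6; open symbols at the lower edge stand for 0 TPM. S100a6 lies above all other members in every sample, with a median of 2969 TPM, and S100b lies lowest, with a median of 0.590 TPM.

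The rest of the family was close to silent. S100a9 and S100z had 0 counts in all 13 libraries, which allows up to 0.00866 CPM over the pooled libraries. S100a8, S100a2, S100g and S100a7l2 had 1 count each in total, S100a5 had 15 in 2 libraries and S100a14 had 30 in 7 libraries. Of these 9 other genes S100a7a alone passed the filter, with at most 15 counts in a library. The calprotectin genes S100a8 and S100a9, known from neutrophils and monocytes, were thus at or near 0 in all 4 groups.

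S100a6 was lower after Fucoidan-FV at both doses. Its CPM in mice 4, 5 and 6 was 761, 755 and 530.1 in control and 891, 1029.7 and 1851 in senescent MEFs. With Fucoidan-FV it was 403, 369 and 320.4 at 100 μg/mL and 462, 347 and 372 at 300 μg/mL. All 6 treated cultures lay below all 6 untreated ones, control and senescent, and senescent mouse 6 was the highest of the 12. The sum of 5 endothelial markers divided the cultures in the same way with the opposite sign, through Tek alone. It was 0.188 to 2.46 CPM in control, 1.47 to 2.38 in senescent, 6.10 to 11.3 in FV100 and 3.86 to 8.32 in FV300 cultures. Tek had at most 0.863 CPM in the 6 untreated and 3.69 to 7.96 in the 6 treated cultures. Pecam1, Cdh5, Kdr and Vwf overlapped between treated and untreated cultures. Tek was not the only listed marker that divided them. Col3a1, a fibroblast marker, had 381 to 919 CPM in untreated and 1416 to 2777 in treated cultures. Comp, a chondrocyte marker, had at most 6.20 CPM in untreated and at least 8.75 in treated ones. Col2a1, also of chondrocytes, had at least 218.1 CPM in untreated and at most 217.3 in treated ones. The part of these markers in the S100a6 values was not tested. The means were 682 ± 132, 1257 ± 519, 364 ± 41.5 and 394 ± 60.4 CPM (SD, n = 3) in control, senescent, FV100 and FV300 MEFs.

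Against senescent MEFs, S100a6 fell 3.45-fold in FV100 (log2 fold change -1.79 ± 0.27 SE, adjusted p = 0.00448) and 3.19-fold in FV300 cultures (-1.67 ± 0.26, adjusted p = 0.00863), by edgeR's quasi-likelihood test adjusted over 15034 genes. A gene is called here when the adjusted p is under 0.05 and the log2 fold change exceeds 1 in size. Per mouse, the log2 difference at 100 μg/mL was -1.14, -1.48 and -2.53 in mice 4, 5 and 6, and at 300 μg/mL it was -0.95, -1.57 and -2.31. Without senescent mouse 6 the values were -1.24 (adjusted p = 0.00983) and -1.24 (adjusted p = 0.0113), and without FV300 mouse 6 the second call was lost (-1.63, adjusted p = 0.0604). Between senescent and control MEFs S100a6 differed by 0.88 ± 0.26 (adjusted p = 0.0426), under the fold limit and so not called, with 0.50 (adjusted p = 0.0958) without senescent mouse 6, 1.06 (adjusted p = 0.0279) without senescent mouse 4 and 1.01 (adjusted p = 0.0389) without senescent mouse 5. With the mouse as a block its adjusted p between senescent and control was 0.0813.

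**Figure D2:**
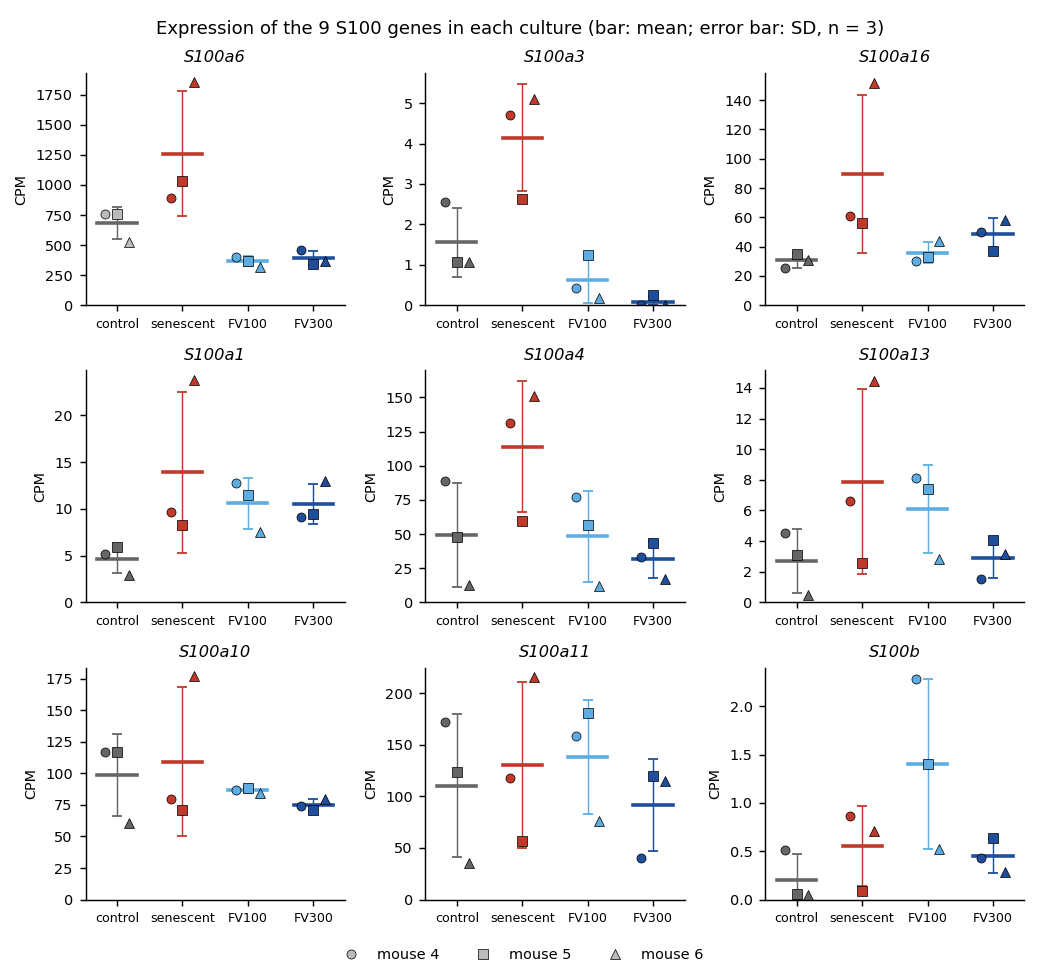
CPM of each of the 9 S100 genes (linear axes from 0, a scale for each gene) in the 3 cultures of each group; symbols mark the mice, thick lines the mean and error bars the SD, cut at 0. S100a6 lies at 320.4 to 462 CPM in the 6 Fucoidan-FV cultures and at 530.1 to 1851 in the 6 others, and senescent mouse 6 is the highest culture for S100a6, S100a16, S100a1, S100a13, S100a4, S100a10, S100a11 and S100a3.

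S100a3, a zinc- and calcium-binding protein known from the hair cuticle, was rare and nearly disappeared at the higher dose. Its CPM was 2.55, 1.06 and 1.08 in control mice 4, 5 and 6 and 4.70, 2.63 and 5.10 in senescent ones. At 100 μg/mL it was 0.438, 1.25 and 0.173, and at 300 μg/mL it was 0, 0.249 and 0. Every senescent culture exceeded every control and treated culture, and the 7 counts at 300 μg/mL came from mouse 5; a count of 0 in FV300 mice 4 and 6 allows up to 0.116 and 0.124 CPM. The 3 senescent cultures held 358 counts, which made them 47.5-fold higher than FV300 after scaling (95% counting interval 22.8 to 119, counting error only), and the FV100 cultures held 52 counts.

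In the fit S100a3 was called lower at 300 μg/mL (log2 fold change -5.52 ± 1.19, adjusted p = 0.0326) and not in FV100 cultures (-2.74 ± 1.01, adjusted p = 0.147). The call at 300 μg/mL was lost without control mouse 4 or 5, senescent mouse 4, 5 or 6, FV100 mouse 4 or FV300 mouse 4 or 6, with an adjusted p for S100a3 between 0.0544 and 0.154 in those fits. Against control MEFs, S100a3 was called lower at 300 μg/mL as well (-4.11 ± 1.15, adjusted p = 0.0187), a call lost without control mouse 4 or FV300 mouse 4 or 6 (adjusted p 0.0515 to 0.0787), and between senescent and control MEFs its difference was 1.41 ± 0.95 (adjusted p = 0.402). The doses differed by -2.78 ± 1.12 for S100a3 (adjusted p = 0.97, unadjusted p = 0.0275).

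S100a16, a widely expressed member with weak calcium binding, was higher in senescent MEFs. In control mice 4, 5 and 6 it stood at 25.5, 35.3 and 31.2 CPM, and in senescent ones at 61.3, 55.9 and 152 CPM. With Fucoidan-FV it stood at 30.5, 33.2 and 44.1 CPM at 100 μg/mL and 49.9, 36.8 and 58.5 CPM at 300 μg/mL. The senescent cultures lay above all control and all FV100 cultures, while FV300 mouse 6 lay within the senescent range.

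S100a16 rose 2.93-fold from control to senescent MEFs (log2 fold change 1.55 ± 0.35, adjusted p = 0.0116), and without senescent mouse 6 the value of 0.94 (adjusted p = 0.00874) was under the fold limit. At 100 μg/mL it differed from senescent MEFs by -1.32 ± 0.35 (adjusted p = 0.0509), just outside the call. With the mouse as a block that value was -1.23 (adjusted p = 0.0477) and S100a16 was called. At 300 μg/mL the difference was -0.89 ± 0.34 (adjusted p = 0.224).

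S100a1, which in muscle binds the ryanodine receptor and the calcium pump of the sarcoplasmic reticulum, was also higher in senescent MEFs, and its level stayed above control with Fucoidan-FV. Control mice 4, 5 and 6 had 5.18, 5.91 and 2.96 CPM and senescent ones 9.62, 8.32 and 23.8 CPM. FV100 cultures had 12.7, 11.5 and 7.51 CPM and FV300 cultures 9.11, 9.50 and 12.98 CPM. All 9 senescent and treated cultures exceeded the 3 control cultures, and the treated ones overlapped the senescent ones.

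The rise of S100a1 from control to senescent was 2.96-fold (log2 fold change 1.56 ± 0.43, adjusted p = 0.0332). That call was lost with the mouse as a block (adjusted p = 0.0778), without any 1 of the control mice, senescent mouse 6 or FV100 mouse 4 or 5 (adjusted p for S100a1 between 0.0501 and 0.12), and the value without senescent mouse 6 was 0.95. Against senescent MEFs S100a1 differed by -0.39 ± 0.42 in FV100 (adjusted p = 0.667) and -0.40 ± 0.42 in FV300 cultures (adjusted p = 0.734). Against control it differed by 1.17 ± 0.43 (adjusted p = 0.0607) and 1.16 ± 0.43 (adjusted p = 0.0656). Desmin (Des), 1 of 6 skeletal muscle markers and the only 1 to pass the filter, had 21.9 to 74.3 CPM in control, 72.5 to 267 in senescent, 78.0 to 96.8 in FV100 and 37.0 to 76.1 in FV300 cultures, highest in senescent mouse 6; its part in the S100a1 values was not tested, and the other 5 reached at most 0.776 CPM (Myh3, senescent mouse 5), 0.511 (Ckm, senescent mouse 4, with 0 in control), 0.127 (Actc1, control mouse 4) and 0.0425 (Myod1 and Myog, which define muscle cells).

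S100a4, the fibroblast-specific protein, varied widely among mice, and no comparison passed in the fit. Its CPM was 88.5, 47.6 and 12.6 in control mice 4, 5 and 6 and 131, 59.6 and 151 in senescent ones. It was 77.1, 56.3 and 11.8 at 100 μg/mL and 33.3, 43.7 and 17.4 at 300 μg/mL. Mouse 6 was the lowest culture in control, FV100 and FV300 and the highest in senescent MEFs, and the FV300 cultures did not overlap the senescent ones. The log2 differences were 1.20 ± 0.68 for senescent against control (adjusted p = 0.299), -1.24 ± 0.68 for FV100 against senescent (adjusted p = 0.341) and -1.86 ± 0.69 for FV300 against senescent (adjusted p = 0.204). Without the filter on low counts S100a4 was called in all 3, with adjusted p of 0.0122, 0.0289 and 5.55e-05.

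S100a10 and S100a11, which bind annexins, were not called in any comparison. S100a10 ran from 60.9 to 117 CPM in control and from 70.6 to 177 in senescent cultures, and it was narrow with Fucoidan-FV, from 84.2 to 88.6 CPM at 100 μg/mL and from 70.9 to 79.6 at 300 μg/mL. Senescent mouse 6, at 177 CPM, was the highest culture for S100a10, and the other senescent cultures lay below 2 of the 3 control ones. S100a10 differed by 0.15 ± 0.32 for senescent against control (adjusted p = 0.835), -0.34 ± 0.32 for FV100 against senescent (adjusted p = 0.62) and -0.54 ± 0.32 for FV300 against senescent (adjusted p = 0.469).

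S100a11 had 172, 124 and 35.4 CPM in control mice 4, 5 and 6 and 118, 56.6 and 216 CPM in senescent ones. With Fucoidan-FV it had 159, 181 and 75.7 CPM at 100 μg/mL and 40.2, 120.1 and 115 CPM at 300 μg/mL. The 4 groups overlapped, and the log2 difference was 0.24 ± 0.58 for senescent against control (adjusted p = 0.86), 0.09 ± 0.58 for FV100 (adjusted p = 0.955) and -0.51 ± 0.58 for FV300 against senescent (adjusted p = 0.76).

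S100a13, a carrier in the release of Fgf1 and Il1a, had 4.55, 3.08 and 0.470 CPM in control mice 4, 5 and 6 and 6.61, 2.59 and 14.4 in senescent ones. It had 8.11, 7.42 and 2.84 CPM at 100 μg/mL and 1.51, 4.09 and 3.19 at 300 μg/mL. The groups overlapped, with the ends of the range, 0.470 and 14.4 CPM, in control and senescent mouse 6. The difference was 1.54 ± 0.76 for senescent against control (adjusted p = 0.23), -0.37 ± 0.74 for FV100 (adjusted p = 0.839) and -1.43 ± 0.76 for FV300 against senescent (adjusted p = 0.412).

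S100b, which binds p53 and signals through Ager, was near the detection limit, with 227 counts over all 13 libraries. Its CPM was 0.510, 0.0589 and 0.0470 in control mice 4, 5 and 6, 0.863, 0.0862 and 0.714 in senescent, 2.29, 1.40 and 0.519 in FV100 and 0.426, 0.640 and 0.290 in FV300 cultures. FV100 cultures all lay above the control ones and overlapped the senescent ones. S100b differed by 2.78 ± 1.13 for FV100 against control (adjusted p = 0.0851), and by 1.32 ± 1.05 (adjusted p = 0.533) for FV100 against senescent. Markers of Schwann cells and glia summed to between 2.20 and 7.25 CPM with overlapping ranges in the 4 groups. Those of chondrocytes, mainly Col2a1, summed to 618 to 873 CPM in control, 228 to 356 in senescent, 125 to 232 in FV100 and 169 to 240 in FV300 cultures. Comp, another chondrocyte marker, went the other way. It had 0.235 to 1.83 CPM in control, 0.690 to 6.20 in senescent, 8.75 to 48.5 in FV100 and 11.1 to 19.9 in FV300 cultures. The part of glial and chondrocyte markers in the S100b values was not tested.

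Counted as a family, 2 of the 9 genes (S100a16 and S100a1) were called between senescent and control MEFs, both higher, and 4 (with S100a3 and S100a6) did not overlap between the groups. Of all 15034 genes, 8.42% were called, 4.47% higher and 3.95% lower, and 27.1% did not overlap. All 9 fold changes were above 0 in the fit, with a median log2 fold change of 1.41 against 0.07 over all genes; S100a10 and S100a11 were below 0 without senescent mouse 6 (-0.37 and -0.31). Without that culture 0 of 9 were called by edgeR, against 1456 of 15490 genes. For FV100 against senescent 1 of 9 was called, lower, and 3 did not overlap, against 2.69% called over all genes, 1.1% higher and 1.6% lower, and 26.2% not overlapping; the median was -0.39 against -0.02. For FV300 against senescent 2 of 9 were called, both lower, and 3 did not overlap, against 1.64% called over all genes, 0.752% higher and 0.885% lower, and 19.6% not overlapping; the median was -0.89 against 0.00. Since the genes were chosen with these comparisons known, the counts carry no test.

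**Figure D3:**
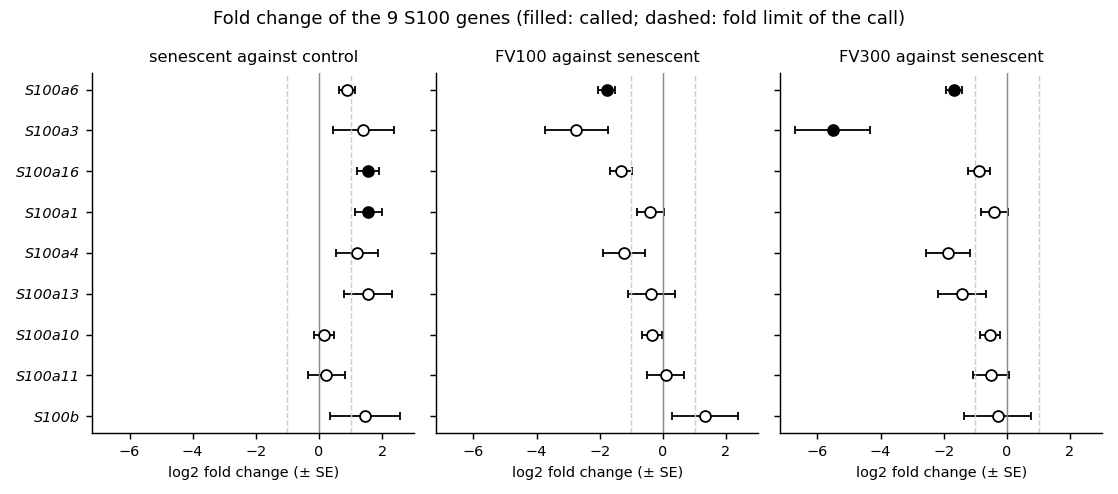
Log2 fold change (x axis) with SE of the 9 S100 genes in the 3 main comparisons, from the fit over all genes; filled points were called, and dashed lines mark the fold limit of 1. S100a16 and S100a1 are filled between senescent and control MEFs, S100a6 at both doses of Fucoidan-FV and S100a3 at 300 μg/mL, at -5.52.

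Between the doses no S100 gene was called, and 0.00665% of all genes were, namely Pif1, a DNA helicase gene named here after its value was seen (-7.64 ± 0.89, adjusted p = 0.0399); S100a6 differed by 0.11 ± 0.26 (adjusted p = 0.97) and S100a10 was the sole member whose FV100 and FV300 cultures did not overlap (-0.21 ± 0.32, adjusted p = 0.97), against 7.54% of all genes. At an unadjusted p under 0.05, S100a3 alone passed between the doses. Set against control MEFs in place of senescent ones, the FV100 cultures had 0 of 9 members called by edgeR, against 19.7% of all genes, and the FV300 cultures had 1 of 9, S100a3, against 18% of all genes. S100a6 lay below control with an adjusted p of 0.0204 in FV100 (-0.91 ± 0.26) and 0.0401 in FV300 cultures (-0.79 ± 0.26), under the fold limit, and its treated cultures overlapped no control culture.

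Partners of S100 proteins were read from a list of 24 genes, 23 of which passed the filter. Between senescent and control MEFs 1 of the 23 was called: Mdm2, the ubiquitin ligase of p53 and a binding partner of several S100 proteins, rose from 166 ± 56.3 to 481 ± 127 CPM (1.53, adjusted p = 0.00174). At 100 μg/mL 2 were called, both annexins. Anxa1, a partner of S100a11, fell from 3098 ± 404 to 1237 ± 74.8 CPM (-1.32, adjusted p = 0.00566), and Anxa2, a partner of S100a10, fell from 1928 ± 361 to 937 ± 122 CPM (-1.04, adjusted p = 0.0102). At 300 μg/mL Anxa1 was called (1394 ± 351 CPM, -1.15, adjusted p = 0.014), while Anxa2 stood at 1065 ± 167 CPM (-0.86, adjusted p = 0.0352), under the fold limit. The Anxa2 call at 100 μg/mL sits at the fold limit and was lost without any 1 of the control or senescent mice or FV100 mouse 4 or 5 (-0.74 to -1.01, adjusted p 0.0103 to 0.0623), and the Anxa1 call at 300 μg/mL was lost without FV300 mouse 5 (adjusted p = 0.0682) or 6 (adjusted p = 0.102). S100a10 and S100a11, named here as partners of these annexins, were not called at either dose. Other S100 members were not matched to annexins here. The median log2 fold change of the partners was 0.02, -0.20 and -0.20 in the 3 main comparisons, against 0.07, -0.02 and 0.00 over all genes. Of all genes, 8.42%, 2.69% and 1.64% were called in these comparisons.

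Among 14 other protein-coding genes within 100 kb of an S100 member, 9 passed the filter. Ilf2, which encodes a subunit of a double-stranded RNA-binding complex and lies beside the S100 cluster, fell from 85.4 ± 8.01 to 40.6 ± 13.3 CPM between control and senescent MEFs (-1.07, adjusted p = 0.01), under the fold limit without senescent mouse 4 (-0.88). Pcnt, the centrosomal pericentrin gene near S100b, fell from 56.9 ± 11.6 to 19.4 ± 6.12 CPM (-1.55, adjusted p = 0.00578). At 100 μg/mL Gm42674 fell from 22.6 ± 5.72 to 3.29 ± 1.06 CPM (-2.78, adjusted p = 0.0131), a call lost without senescent mouse 6 or any 1 FV100 mouse (adjusted p 0.0526 to 0.0618). At 300 μg/mL 0 of the 9 were called by edgeR. The shares called over all genes were 8.42% for senescent against control, 2.69% for FV100 and 1.64% for FV300 against senescent. The 2 neighbours called between senescent and control MEFs were lower, and the 2 S100 members called there were higher.

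Genes with the most similar pattern over the 12 samples were found by Pearson's r of log2 CPM, a description in which all points share libraries and groups. For S100a6 they included Mrpl38 (r = 0.958, Spearman's rank correlation 0.944), a mitochondrial ribosomal protein gene, and Gss (0.957, 0.902), which encodes glutathione synthetase. For S100a11 the r was higher, with Babam1 (0.994), Manbal (0.994) and Ncbp2as2 (0.992). S100a4 was nearest to Car8 (0.948), Msx2 (0.945) and Niban2 (0.915).

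S100a11 and S100a13 differed most between the libraries made from control mouse 5. These genes and S100b have 1 annotated transcript each. Of the genes that resembled S100a11 or S100a4, the exonic bases of Manbal, Ncbp2as2 and Car8 are likewise covered by 1 transcript in full (100%). For Babam1, Msx2 and Niban2 the share of exonic bases covered by 1 transcript is 82.8%, 77.4% and 61.7%. It is 57.6% for S100a4 itself and 2.01% for S100a1. The libraries 5(1) and 5(2) of control mouse 5 differed by 2.06 on the log2 scale for S100a11, 2.24 for S100a13, 1.00 for S100a4 and 0.70 for S100a1, and by 0.36 for S100a10, 0.33 for S100b, 0.25 for S100a3, 0.087 for S100a16 and -0.22 for S100a6 (5(2) minus 5(1)). S100b, also of 1 transcript, held 0 counts in 5(1) and 3 in 5(2). At such counts the 0.5 added to CPM before the log2 keeps any difference small. Its 0.33 can therefore not be compared with the values of S100a11 and S100a13. Over 2270 genes with more than 95% such bases the median of the same difference was 0.94, and over 7576 genes with less than 50% it was -0.18. The median of the 2270 genes ran from -0.70 in control mouse 6 to 0.57 in FV100 mouse 5, and S100a11 stood at -1.49 and 0.84 in these libraries and S100a13 at -2.09 and 0.94. What sets this difference between libraries was not tested.

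Within groups the SD of log2 CPM was 0.34 for S100a6, 0.45 for S100a10, 0.47 for S100a16 and 0.54 for S100a1, against 0.95 for S100a11, 1.03 for S100b, 1.13 for S100a4 and 1.15 for S100a13. With offsets for single-transcript sequence, length and GC content, S100a6 was -1.34 (adjusted p = 0.000843) for FV100 and -1.17 (adjusted p = 0.00197) for FV300 against senescent, S100a16 was 1.18 (adjusted p = 0.00272) and S100a1 1.16 (adjusted p = 0.0518) between senescent and control MEFs, and S100a3 was -5.29 (adjusted p = 0.0148) at 300 μg/mL. The S100a4 difference at 100 μg/mL went from -1.24 to -0.19 (adjusted p = 0.918) with these offsets.

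**Figure D4:**
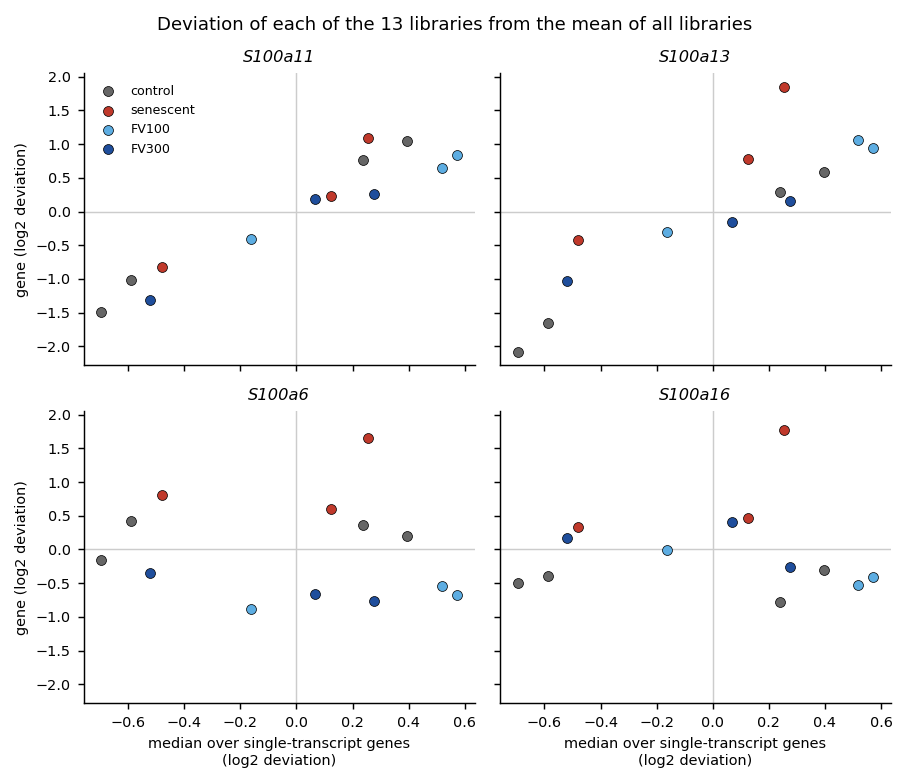
Log2 deviation of each of the 13 libraries from the mean of all libraries, for the median of the 2270 genes with more than 95% single-transcript sequence (x axis) and for 4 S100 genes (y axis), coloured by group. The order of libraries on the x axis is largely that of S100a11 and S100a13, from -1.49 and -2.09 in control mouse 6 upward. Senescent mouse 6 is the highest library for all 4 genes. It stands at 1.09 for S100a11, 1.86 for S100a13, 1.65 for S100a6 and 1.77 for S100a16.

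Among markers of other cell types, the chondrocyte sums given above were the highest. Skeletal muscle markers, nearly all Des, summed to between 21.9 and 267 CPM. Macrophage markers reached 0.564 to 4.55 CPM in control, 2.91 to 16.9 in senescent, 6.26 to 14.0 in FV100 and 3.26 to 10.4 in FV300 cultures, and epithelial ones reached at most 2.04 CPM. Adipocyte markers summed to between 13.7 and 33.1 CPM. None of the 47 markers listed was at 0 in every library. Macrophage sums were higher in all FV100 than in all control cultures, mainly through Lyz2. Lyz2 had at most 0.628 CPM in control and 2.91 to 6.44 in FV100 cultures. Ptprc separated too, with at most 0.127 CPM in control and 0.376 to 1.04 in FV100 cultures. Csf1r, Adgre1, Cd68 and Itgam overlapped between these groups. Between control and FV100 cultures S100a1 and S100b were higher in all 3 FV100 cultures, S100a6 was lower in all 3 and the other 6 members overlapped. The share of all genes without overlap in this comparison was not counted, while 19.7% were called. How common such a separation is among all genes is therefore not known here. For S100b the lowest FV100 culture had 0.519 CPM and the highest control culture 0.510. The part of macrophage markers in the S100 values was not tested.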

How the data were processed

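RNA was extracted with Trizol and made into libraries with a stranded total RNA kit. Per the submitters' processing notes and methods, the authors checked reads with FastQC 0.12.1, trimmed them with Trimmomatic, aligned them to GRCm39 with STAR 2.7.11b and ran RSEM 1.3.1. The deposited expected counts per gene are not normalized, and the deposited TPM values are RSEM's own, scaled for length and depth. Whether RSEM used strand is not given in the sources used here. Deposited FPKM was not used.

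Expected counts were rounded, 5(1) and 5(2) were summed, and genes were filtered with filterByExpr (minimum count 10, total 15). Group means of 12 samples were fitted in edgeR 4.0.16 (R 4.3.3) with TMM factors, and the quasi-likelihood test was adjusted by Benjamini-Hochberg over 15034 genes. SE is the absolute log2 fold change over the root of F. CPM is TMM-scaled. Log2 CPM per mouse adds 0.1, and log2 CPM for similarity and for single libraries adds 0.5. Members, lists and markers were chosen with earlier results of these data known. Named were all members, other S100 genes by counts, listed partners and neighbours called in a main comparison, and the 3 genes most like each of the 3 most abundant members, of which 1 is not reported here. The labels give the same mouse numbers in every group. Across 18 pairs of same-numbered samples, deviations from group means correlated between -0.33 and 0.60 (median -0.04), with 8 pairs over 0.1. The methods give 3 independent replicates per group; whether same-numbered samples came from 1 culture is not given in the sources used here. Alternatives were DESeq2 1.42.0, RLE factors, other filters, fewer samples, single 5(1) or 5(2), the mouse as a block, offsets (splines with 3 df), no fold limit and the combined table.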

Additional observations from a re-analysis of the deposited data

How the results depend on the processing

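The 9 S100 genes held 2 calls for senescent against control, 1 for FV100 against senescent, 2 for FV300 against senescent, 0 for FV300 against FV100, 0 for FV100 against control and 1 for FV300 against control. For FV100 against senescent DESeq2 gave 3 members (S100a3, S100a6, S100a16), no filter beyond 1 count in total gave 3 (S100a4, S100a6, S100a16), and 5(1) and 5(2) as separate samples or the replicate block gave 2 each (S100a6, S100a16). Over all genes these fits called 833 of 15059, 800 of 27238, 348 of 15071 and 321 of 15034. For senescent against control, the fit of only the 2 groups compared gave 0 by edgeR, and 5(2) alone, the replicate block, the offsets, and the offsets with the block gave 1 each (S100a16). Over all genes these fits called 699 of 13709, 1092 of 14976, 1137 of 15034, 1653 of 15034 and 1637 of 15034. For FV300 against senescent, 10 counts in every sample, which removes S100a3 and S100b from the test, and the fit of only the 2 groups gave 1 each (S100a6). Over all genes they called 265 of 11240 and 101 of 14011. Against control, FV100 had 2 with DESeq2 or with offsets and block (S100b, S100a1), and 1 with RLE factors, no filter, 10 counts in every sample, the 2 groups, 5(1) alone or offsets (S100a1), or with no fold limit (S100a6). Over all genes DESeq2 called 3722 of 16641 and offsets and block 3479 of 15034. The other fits called, in that order, 3002 of 15034, 3271 of 27238, 2306 of 11240, 2848 of 14007, 3278 of 15030, 3557 of 15034 and 4006 of 15034. FV300 against control had 2 with DESeq2, 5(1) alone, offsets with or without the block (S100a3, S100a1) or no fold limit (S100a3, S100a6), and 0 with 10 counts in every sample or the 2 groups. Over all genes DESeq2 called 3358 of 16641, 5(1) alone 2808 of 15030 and no fold limit 3675 of 15034. Offsets called 3165 of 15034 with and 3253 of 15034 without the block. With 10 counts in every sample 2112 of 11240 were called, and with the 2 groups 2401 of 13718. Beyond those named here and the adjusted p of S100a6 between senescent and control, the mouse as a block changed no call of an S100 member.

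Without each replicate in turn the counts ran from 0 to 3 for senescent against control, 0 to 2 for FV300 against senescent and against control, and 0 to 1 for FV100 against control. Those fits tested 15454 to 15605 genes. Over all genes 911 to 1456 were called for senescent against control and 46 to 317 for FV300 against senescent. Against control 2182 to 2827 were called for FV300 and 2262 to 3121 for FV100. A call that left a fit with 2 samples in an arm assumes that they vary like the other groups. Some members that were not called changed sign. S100a11 for senescent against control was -0.0886 with 5(2) alone. With the offsets, S100a1 was 0.41 and S100a11 was -0.41 for FV100 against senescent, and S100a1 was 0.0686 and S100b 0.12 for FV300 against senescent; with the block added these were 0.38, -0.39, 0.0548 and 0.23. Leaving out a replicate, S100a10 ran from -0.37 to 0.39 and S100a11 from -0.31 to 0.71 for senescent against control. For FV100 against senescent the ranges were -0.55 to 0.41 for S100a1, -0.41 to 0.35 for S100a10, -0.15 to 0.84 for S100a11 and -0.62 to 0.59 for S100a13. For FV300 against senescent they were -0.61 to 0.27 for S100a1, -0.72 to 0.0389 for S100a10, -0.79 to 0.13 for S100a11 and -0.74 to 0.25 for S100b. S100a6 between the doses ran from -0.0166 to 0.20. The causes were not tested.

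S100a6 was called in 25 of 25 alternatives for FV100 and 24 of 25 for FV300 against senescent. These alternatives are not independent. The combined table holds the same counts and the setting without a fold limit reuses the same fit, so neither could lose the call. A further 12 left out 1 replicate each, some of them from a group not compared. Over all genes the calls went from 1266 to 699 with the 2 groups alone for senescent against control, from 405 to 833 (DESeq2), 800 (no filter), 168 (2 groups) and 613 (offsets) for FV100 against senescent, and from 246 to 643, 580, 101 and 400 for FV300 against senescent. For FV100 against senescent the split was 165 higher and 240 lower, and 174 and 147 with RLE factors. The offsets moved the median log2 fold change of all genes from 0.07 to -0.06 for senescent against control. S100b had 227 counts over all 13 libraries and S100a3 had 7 in the FV300 cultures; how much counting error adds to their spread was not tested.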
